A study of Mus musculus with 10 samples.

Results

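The genes of 7 G protein-coupled receptors by which endocrine cells of the gut sense the contents of the lumen were examined, namely Ffar1, Ffar2, Ffar3, Ffar4, Gpr119, Gpbar1 and Casr. They were taken by gene symbol, and all 7 were found among the 20579 genes listed. RNA had been sequenced from cells sorted for green fluorescent protein driven by the Hopx promoter, from the intestines of E18.5 mouse embryos. There were 5 p57KO libraries, without the cyclin-dependent kinase inhibitor p57Kip2, and 5 p57WT libraries. Both genotypes shared the reporter sort and a strain given as C57BL6/J / 129S4. The p57KO allele was not described in the sources used here, and no animal identifiers were given, so p-values measure the spread between these libraries. The labels call the cells Hopx+ intestinal stem cells. Each library carries a label number, which is 607 for p57KO 1, p57KO 2 and p57WT 1, 608 for p57KO 3 to 5, and 740 for p57WT 2 to 5. Its meaning was not given, and only 607 holds both genotypes.

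Enteroendocrine cells are scattered hormone-secreting cells of the gut epithelium, and many carry receptors that couple a nutrient to hormone release. FFAR1 and FFAR4 bind long-chain fatty acids, and GPR119 binds monoacylglycerols and fatty acid ethanolamides formed around fat digestion. FFAR2 and FFAR3 bind the short-chain fatty acids that bacteria make, GPBAR1 (also called TGR5) binds bile acids, and CASR senses extracellular calcium and some amino acids. GPR119 and GPBAR1 raise cAMP through the G protein Gs, FFAR1 and CASR act mainly through Gq and calcium, and FFAR3 acts through Gi. Several of these receptors are also made outside the endocrine lineage, such as FFAR2 in neutrophils and GPBAR1 in macrophages.

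Total counts ranged from 8037887 to 26809231 per library, so 3 counts, the limit that a count of 0 allows, corresponded to 0.105 to 0.392 CPM, the counts scaled to a common library size. This limit and all counting intervals cover counting error only. Cdkn1c, the gene of p57Kip2, ranged from 0.153 to 2.06 CPM in p57KO and from 151 to 458 CPM in p57WT libraries, so no library went against its genotype label. The sorted material was not purely epithelial. Markers of epithelium summed to 9800 to 17800 CPM in p57KO and 3270 to 7860 CPM in p57WT libraries, and those of smooth muscle to 4760 to 32300 CPM in p57KO and 49300 to 98500 CPM in p57WT libraries. The 30 enteroendocrine markers summed to 9010 to 22200 CPM in p57KO and 1200 to 1780 CPM in p57WT libraries. In bulk RNA of this kind, a larger share of endocrine cells and more receptor RNA per endocrine cell cannot be told apart.

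The comparison asks which nutrient receptors differ in Hopx-sorted cells without p57Kip2. Ffar2, Ffar4 and Gpr119 rose in p57KO cells, with Gpr119 at 8.99 CPM on average in p57KO and 0.482 CPM in p57WT. Ffar1 was also higher in every p57KO library than in any p57WT library but missed the threshold, and Gpbar1 was not called in either direction. Ffar3 and Casr were scarce and fell below the expression filter. Of the 5 receptors tested, 3 were called higher and 0 lower, at an adjusted p below 0.05 in edgeR's quasi-likelihood test (4 and 0 at an unadjusted p below 0.05). Across all 16710 genes tested, 36.5% were called at the adjusted threshold, 19.3% higher and 17.2% lower in p57KO. The share of all genes at the unadjusted threshold is not given here. DESeq2 and limma voom each called 4 of the 5 higher and 0 lower. The background in DESeq2 was 43.1% of genes called, 22.9% higher and 20.2% lower, and in limma voom it was 38.3%, with 18.0% higher and 20.2% lower. When label number was added to the edgeR model, only the libraries of 607 bore on genotype, with p57WT 1 as the only p57WT library. The log2 fold changes were then 1.44 for Ffar2, 2.76 for Gpr119, 2.2 for Ffar4, 0.63 for Ffar1 and -0.16 for Gpbar1. With 1 library on one side, a missed threshold in that fit cannot show that a receptor is unchanged.

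The promoters of 4 of the genes are shown because they cover the contrasts of the data: Gpr119 with the largest fold change, Ffar2 with the highest level, Ffar3 with matches to the motifs searched, and Gpbar1, which was not called. Each run is the 250 bases before the RefSeq start of the gene on its own strand (GRCm38.p6), with motif matches in capitals.
Gpr119, chrX:48674479-48674728, minus strand: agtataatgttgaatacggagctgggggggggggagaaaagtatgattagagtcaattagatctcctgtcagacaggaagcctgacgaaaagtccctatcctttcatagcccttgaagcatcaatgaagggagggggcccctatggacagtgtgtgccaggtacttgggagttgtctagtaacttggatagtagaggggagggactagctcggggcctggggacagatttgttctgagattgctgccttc
Ffar2, chr7:30823776-30824025, minus strand: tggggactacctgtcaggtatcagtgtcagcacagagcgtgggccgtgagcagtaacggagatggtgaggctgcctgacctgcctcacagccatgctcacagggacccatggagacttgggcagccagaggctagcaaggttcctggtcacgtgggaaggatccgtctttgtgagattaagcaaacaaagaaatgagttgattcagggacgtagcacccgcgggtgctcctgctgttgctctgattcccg
Ffar3, chr7:30856179-30856428, minus strand: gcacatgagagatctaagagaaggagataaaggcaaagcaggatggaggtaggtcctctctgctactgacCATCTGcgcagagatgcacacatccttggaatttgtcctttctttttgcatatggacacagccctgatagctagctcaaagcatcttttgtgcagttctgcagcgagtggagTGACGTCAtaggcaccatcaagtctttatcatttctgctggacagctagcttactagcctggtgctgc
Gpbar1, chr1:74278350-74278599, plus strand: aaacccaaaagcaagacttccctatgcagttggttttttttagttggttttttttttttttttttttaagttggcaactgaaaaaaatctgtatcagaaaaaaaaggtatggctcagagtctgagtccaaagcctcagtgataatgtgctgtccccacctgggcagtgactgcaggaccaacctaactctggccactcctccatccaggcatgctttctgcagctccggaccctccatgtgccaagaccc

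RefSeq gave 10 such windows for the 7 receptors, 4 of them for Ffar2, and each was searched on both strands for 5 motifs. The cAMP response element TGACGTCA was in 1 of the 10 windows, that of Ffar3, where it began 68 bases before the start, and in 1.55% of 32851 windows of all genes. The E-box CAGATG, bound by the bHLH factors of the endocrine lineage, was in the windows of Ffar3 and Ffar1 and in 14.4% of all windows. The TATA box TATAAA (12.4% of all windows), the GATA motif GATAAG (6.55%) and the HNF4 core CAAAGTCCA (0.384%) were in none of the receptors' windows. These are matches of letters, and no binding was measured.

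The long-chain fatty acid receptors differed in how even their levels were. Ffar4 (ENSMUSG00000054200, chromosome 19, 38097071 to 38114263, plus strand, GRCm38) was at 7.48, 18.7, 6.55, 6.87 and 7.92 CPM in p57KO 1 to 5, against 2.85, 1.90, 0.726, 0.393 and 5.22 CPM in p57WT 1 to 5. All p57KO libraries lay above all p57WT libraries, and p57KO 2 stood apart at the top. The means were 9.50 ± 5.16 CPM in p57KO and 2.22 ± 1.94 CPM in p57WT (SD, n = 5 each). This is a log2 fold change of 2.10 with an SE of 0.60 and 95% limits of 0.81 and 3.39 (adjusted p = 0.0160, edgeR). Without p57KO 2 it was 1.72 and still passed (edgeR adjusted p = 0.0418). The pan-leukocyte markers, of which 6 of 10 were measured, summed to 2900 CPM in p57KO 2, against 111 to 375 CPM in the other p57KO and 14.6 to 92.6 CPM in p57WT libraries. Their part in the Ffar4 level was not tested.

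Ffar1 (ENSMUSG00000044453, chromosome 7, 30857390 to 30861564, minus strand, GRCm38) was at 6.71, 6.99, 16.4, 7.29 and 30.6 CPM in p57KO 1 to 5. In p57WT 1 to 5 it was at 4.44, 0.0395, 6.53, 4.97 and 2.85 CPM. The groups did not overlap, but the lowest p57KO and the highest p57WT library lay close together, and p57WT 2 held a single read. Its log2 fold change of 1.87 had an SE of 0.78 and 95% limits of 0.19 and 3.55, and missed the threshold (adjusted p = 0.0743, edgeR). It passed in DESeq2 (1.85, adjusted p = 0.0275), in limma voom (3.25, adjusted p = 0.0287) and, in edgeR, without p57WT 2 (1.53, adjusted p = 0.0383). The authors' deposited table lists it at 1.88 with an adjusted p of 0.0329. The call for Ffar1 thus depended on the tool and on 1 library.

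Gpr119 (ENSMUSG00000051209, chromosome X, 48667979 to 48674478, minus strand, GRCm38) had the largest change among the tested receptors. It was at 2.15, 7.12, 18.6, 11.3 and 5.75 CPM in p57KO 1 to 5, against 0.683, 0.0790, 0.484, 1.05 and 0.119 CPM in p57WT 1 to 5. The groups did not overlap. Levels varied more widely among p57KO libraries than those of Ffar2, with p57KO 1 lowest and p57KO 3 highest. The means were 8.99 ± 6.31 CPM in p57KO and 0.482 ± 0.404 CPM in p57WT (SD, n = 5 each). On the log2 scale the fold change was 4.32, with an SE of 0.75 and 95% limits of 2.70 and 5.93 (adjusted p = 0.00129, edgeR). Over the pooled counts, 1086 for p57KO and 21 for p57WT, p57KO was at 29.8 times the p57WT level (95% counting interval 19.4 to 48.4). p57WT 2 holds 43.3% of the p57WT depth and 2 of these counts, and without it the ratio was 18.7. The log2 fold change ran from 3.87 without p57KO 3 to 4.83 without p57WT 4.

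Ffar2 (ENSMUSG00000051314, chromosome 7, 30818348 to 30823775, minus strand, GRCm38), a receptor for acetate and propionate, was the most evenly raised. It was at 46.5, 49.6, 60.8, 55.6 and 52.2 CPM in p57KO 1 to 5, against 17.8, 5.93, 13.2, 8.50 and 15.4 CPM in p57WT 1 to 5. No library of either genotype came near the range of the other. The means were 52.9 ± 5.53 CPM in p57KO and 12.2 ± 4.88 CPM in p57WT (SD, n = 5 each). Ffar2 thus had a log2 fold change of 2.13, with an SE of 0.29 and 95% limits of 1.49 and 2.76 (adjusted p = 0.000436, edgeR). Neutrophils also make this receptor, and the 8 of 15 neutrophil markers measured summed to 654 and 4950 CPM in p57KO 1 and 2, 22.4 to 58.1 CPM in p57KO 3 to 5 and 2.17 to 12.0 CPM in p57WT libraries. Leaving out p57KO 1 and 2 gave a log2 fold change of 2.27 (adjusted p = 0.000588, edgeR). The p57KO libraries left in that fit still held more neutrophil marker RNA than any p57WT library. Those left out are also the only p57KO libraries that share a label number with a p57WT library. That fit therefore cannot separate neutrophils from genotype, and the part of neutrophils in the Ffar2 level was not tested.

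Ffar3 (ENSMUSG00000019429, chromosome 7, 30854330 to 30856178, minus strand, GRCm38) lies between Ffar2 and Ffar1 and was far scarcer. It had 5, 14, 38, 18 and 10 counts in p57KO 1 to 5, against 3, 0, 0, 2 and 0 counts in p57WT 1 to 5. In CPM this was 0.430 to 1.33 in p57KO and 0 to 0.342 in p57WT libraries, without overlap. The closest libraries, p57KO 1 and p57WT 1, held 5 and 3 counts, a gap that counting error alone can give. Over the pooled counts, 85 for p57KO and 5 for p57WT, the ratio was 9.80 (95% counting interval 4.04 to 31.0). Single p57WT libraries moved it, to 20.8 without p57WT 1 and 5.56 without p57WT 2. The mean of log2(CPM + 0.5) was higher by 1.05 in p57KO. An exact permutation test over the 5 and 5 libraries, chosen after seeing the data, gave p = 0.00794 (two-sided). This is the smallest p that 252 assignments can give. Any 2 groups of this size without overlap reach it, so it restates the lack of overlap and is no separate support.

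Casr (ENSMUSG00000051980, chromosome 16, 36493696 to 36562141, minus strand, GRCm38) was at a similar low level. It had 26, 18, 47, 16 and 36 counts in p57KO 1 to 5, against 6, 0, 2, 0 and 2 counts in p57WT 1 to 5. The ranges of 0.614 to 3.13 CPM in p57KO and 0 to 0.683 CPM in p57WT overlapped through p57WT 1. With 143 pooled counts for p57KO and 10 for p57WT, the ratio was 8.24 (95% counting interval 4.36 to 17.6). It was 17.5 without p57WT 1 and 4.67 without p57WT 2. The mean of log2(CPM + 0.5) was higher by 1.51 in p57KO (exact permutation test, two-sided p = 0.0159), Casr and Ffar3 being the 2 genes tested this way. Without the expression filter edgeR called both, with adjusted p = 0.0303 for Casr and 0.0418 for Ffar3 and 31.5% of 20579 genes called, 17.2% of the 20579 being higher in p57KO and 14.3% lower. For a p57WT library at 0, the counts set only an upper limit, that of 3 counts.

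Gpbar1 (ENSMUSG00000064272, chromosome 1, 74278550 to 74279624, plus strand, GRCm38) was the only receptor with a lower mean in p57KO. It was at 0.172, 1.57, 3.26, 0.729 and 1.74 CPM in p57KO 1 to 5, against 1.02, 2.96, 1.45, 2.75 and 2.96 CPM in p57WT 1 to 5. The groups overlapped widely. Its log2 fold change of -0.57 had an SE of 0.61 and 95% limits of -1.88 and 0.75 (adjusted p = 0.485, edgeR), an interval that leaves room for a decrease and for a small increase. Macrophages also make this receptor. The 14 of 15 macrophage and monocyte markers measured summed to 213 to 2780 CPM in p57KO and 35.5 to 202 CPM in p57WT libraries. Of these markers, 8 of 13 tested were called higher and 0 lower, beside 19.3% and 17.2% of all genes.

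**Figure D1:**
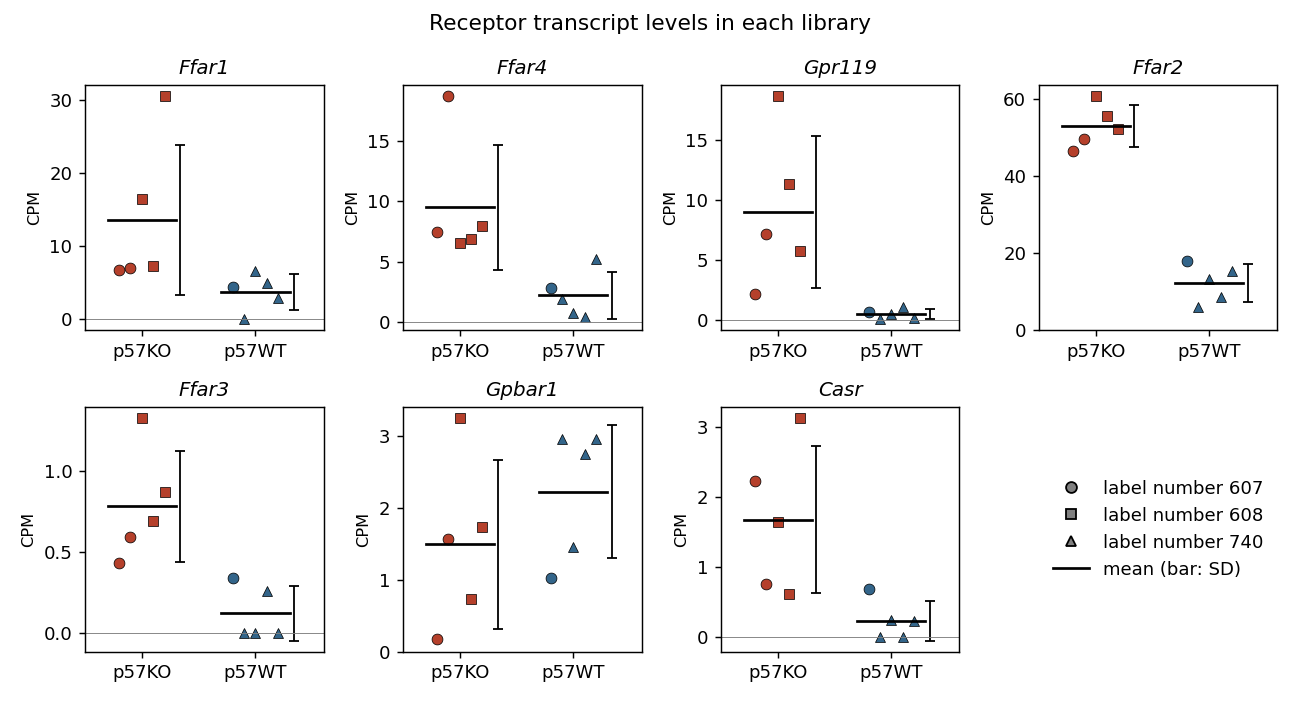
CPM of each receptor in each library, p57KO on the left and p57WT on the right of each panel, with marker shapes for the label numbers, horizontal lines for the mean and bars for the SD (n = 5 each). Ranges do not overlap for Ffar1, Ffar2, Ffar3, Ffar4 and Gpr119, overlap through 1 p57WT library for Casr, and overlap widely for Gpbar1.

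The p57KO libraries lay above all p57WT libraries for 5 of the 7 receptors, and this held for 10.1% of all genes listed. Among genes tested, it held for 11.5%, and ranges did not overlap in either direction for 24.2%. For Ffar3 the separation rested on 5 counts in p57KO 1 against 3 in p57WT 1. Gpbar1 was set against Ffar2 within each library to describe how far their levels moved apart. The log2 ratio of Gpbar1 to Ffar2, on CPM plus 0.5, was -4.96 ± 0.84 in p57KO and -2.19 ± 1.06 in p57WT (SD, n = 5 each). It was lower by 2.77 on the log2 scale in p57KO, without overlap (exact permutation test, two-sided p = 0.00794, the smallest possible). Groups without overlap always give this p. Ffar2 was already known to be higher in every p57KO library and Gpbar1 not to be raised, so the ratio restates those values and is no separate support. The ratio of Gpr119 to Ffar2 was -2.77 ± 0.93 in p57KO and -3.69 ± 0.78 in p57WT, a difference of 0.92 within the spread of the libraries (exact permutation test, two-sided p = 0.135). These 2 pairs were chosen after the values were seen, and the p-values are not adjusted.

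Levels of different genes were compared per kilobase of annotated exon, which rests on GENCODE M21 exon lengths of 1075 bases for Gpbar1 to 4718 bases for Casr. In p57KO cells Ffar2 was first at 19.0 ± 1.98 CPM per kilobase, above Ffar4 at 6.78 ± 3.68, without overlap. Gpr119 followed at 3.96 ± 2.78, Ffar1 at 3.25 ± 2.47, Gpbar1 at 1.39 ± 1.09, Ffar3 at 0.423 ± 0.187 and Casr at 0.356 ± 0.222 CPM per kilobase (SD, n = 5 each). From Ffar4 downwards each range overlapped that of the next receptor. In p57WT cells Ffar2 was again first, at 4.36 ± 1.75 CPM per kilobase, but Gpbar1 came next at 2.08 ± 0.86 and exceeded Ffar2 in p57WT 2. Ffar4 was at 1.58 ± 1.38, Ffar1 at 0.902 ± 0.590, Gpr119 at 0.213 ± 0.178, Ffar3 at 0.0652 ± 0.0906 and Casr at 0.0493 ± 0.0591 CPM per kilobase, and all neighbours in this order overlapped.

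**Figure D2:**
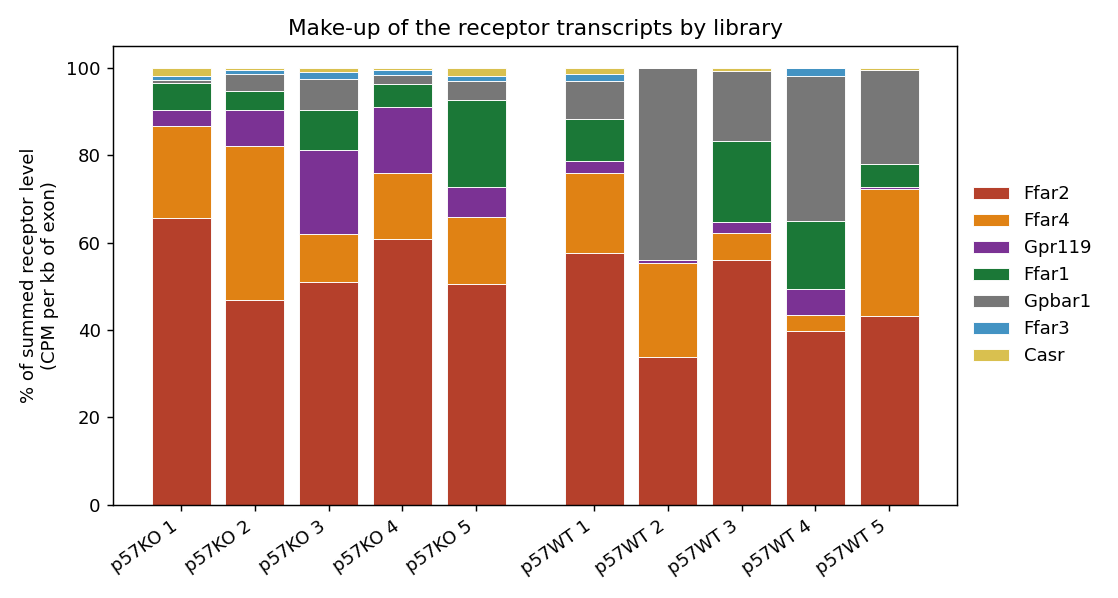
Share of each receptor in the summed receptor level (CPM per kilobase of exon, in %) by library, p57KO 1 to 5 on the left and p57WT 1 to 5 on the right. Gpbar1 made up 0.629% to 7.09% in p57KO and 8.63% to 43.9% in p57WT libraries, and Gpr119 3.72% to 19.2% in p57KO and 0.409% to 6.01% in p57WT libraries.

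As shares of the 7 receptors together, Ffar2 made up 46.9% to 65.6% in p57KO and 33.8% to 57.6% in p57WT libraries, and the ranges overlapped. Those of Gpbar1 did not. Ffar4 held 10.9% to 35.2% in p57KO and 3.65% to 29.1% in p57WT libraries, also overlapping. Shares of 1 whole move against each other, so a lower share of Gpbar1 is not a lower level.

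Within label number 607, the 2 p57KO libraries were set against p57WT 1 alone, which was assumed to vary like the other libraries. There 0 of the 5 receptors passed in edgeR, where 6.04% of all genes did, 1.10% higher and 4.94% lower in p57KO. With p57WT 1 alone on one side, a missed threshold there cannot show that a receptor is unchanged. The log2 fold changes were 1.44 for Ffar2 (edgeR adjusted p = 0.155), 2.76 for Gpr119 (0.263), 2.2 for Ffar4 (0.306), 0.63 for Ffar1 (0.833) and -0.16 for Gpbar1 (0.949). All kept the sign they had over all libraries. The replicate numbers, used as a block in place of the label number, left 34.7% of genes called. Among p57KO libraries, Gpr119 averaged 4.63 CPM in those of 607 and 11.9 CPM in those of 608, and Ffar1 6.85 and 18.1 CPM. Genotype and label number cannot be told apart outside 607.

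The receptors were also set against other epithelial and endocrine RNA, by scalings that multiply all genes of a library by a common factor. These factors differ between libraries, so fold changes move by unequal amounts. The median of all genes is therefore only a rough reference for each value. Scaling the libraries to the 18 epithelial markers put the median log2 fold change of all genes at -1.18, where TMM scaling put it at 0.08. Gpr119 was then at 3.26 (edgeR adjusted p = 0.00147) and Ffar2 at 0.92 (0.0351), and both still passed. Ffar4 at 0.72 (0.339) and Ffar1 at 0.81 (0.357) did not, and Gpbar1 passed as lower, at -1.85 (0.0310). Under that scaling 61.2% of genes were called, 3.12% higher and 58.1% lower.

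When libraries were scaled to the 30 enteroendocrine markers, the median over all genes was -3.88 and 96.2% of genes were called, 0.377% higher and 95.8% lower in p57KO. Gpr119 then missed the threshold at 0.69 (adjusted p = 0.443, edgeR). Ffar2 turned to -1.43 (0.0649) and Ffar1 to -1.34 (0.111), neither of which passed, and Ffar4 turned to -1.71 (0.0442). Gpbar1 was at -4.96 (9.9e-07). Relative to the endocrine markers, 0 receptors were called higher and 2 lower, and all but Gpbar1 lay above the median of all genes.

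**Figure D3:**
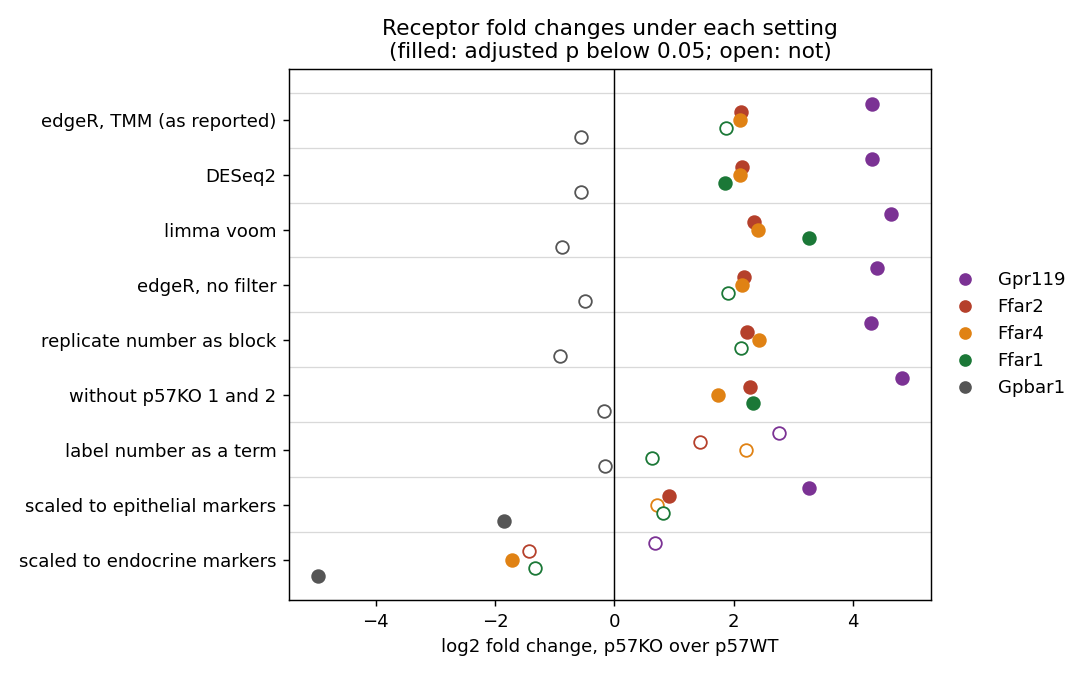
Log2 fold changes of the 5 tested receptors, p57KO over p57WT, under 9 ways of fitting or scaling, with filled points for adjusted p below 0.05 and open points otherwise. Gpr119 lies right of 0 in every row shown, while Ffar1, Ffar2 and Ffar4 lie left of 0 when libraries are scaled to the enteroendocrine markers, and Gpbar1 lies left of 0 throughout.

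The genes whose profile over the 10 libraries was nearest to each receptor were found by the root-mean-square difference between log2(CPM + 0.5) profiles, each centred on its own mean, among 16457 genes. For Ffar2 these were Tspan13, a tetraspanin gene, at 0.306, Gm38655 at 0.334 and Tff3, a goblet cell trefoil factor gene, at 0.335, against a median of 1.26 over all genes. For Gpr119 they were Tubal3 at 0.387, Slc3a1, an amino acid transporter subunit gene, at 0.413 and Efcab1 at 0.461, against a median of 1.81. The genes nearest to Ffar4 were St8sia3 at 0.390, Krtap26-1 at 0.431 and Frmd3 at 0.447 (median 1.38). Ffar1 was nearest to Padi2 at 0.558, the peptide transporter gene Slc15a1 at 0.675 and Cfb, a complement factor gene, at 0.698 (median 1.57). Gpbar1 was nearest to Prmt2 at 0.303, Tpst1 at 0.346 and the nucleoside transporter gene Slc29a1 at 0.361 (median 0.985). Among the receptors themselves, the closest profiles were those of Ffar2 and Ffar4 at 0.755. These distances are descriptions of 10 shared libraries.

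In the following lists, values with no unit are log2 fold changes, p57KO over p57WT, of genes with an edgeR adjusted p below 0.05. Scaling to epithelial or enteroendocrine markers shifts all of them downwards, with medians over all genes of -1.18 and -3.88, and of the 16 named genes with a positive value 2 and 13 had a negative one under these scalings. Over all genes tested, 19.3% were called higher and 17.2% lower. Other sensors and hormone receptors of endocrine cells were called higher more often than lower. Of 10 other chemosensor genes tested, out of 20 chosen, 6 rose and 2 fell, with a median log2 fold change of 1.45 against 0.08 over all genes, while limma voom called 3 higher and 1 lower. Trpa1, an irritant-gated channel of enterochromaffin cells, averaged 12.3 ± 6.38 CPM in p57KO and 0.800 ± 0.839 CPM in p57WT (SD, n = 5 each) and rose by 3.92 on the log2 scale. The adhesion receptor gene Adgrf5 rose by 2.16, while the orphan receptor gene Gpr17 was at -3.12. Of 11 hormone receptor and related genes tested, out of 18 chosen, 5 rose and 0 fell (median 1.28). Galr1, a galanin receptor gene, averaged 4.58 ± 2.26 CPM in p57KO and 0.426 ± 0.246 CPM in p57WT. On the log2 scale it rose by 3.50 and Sstr1, a somatostatin receptor gene, by 3.21. Asic5, the gene of a bile acid-sensitive ion channel, had 1524 pooled counts in p57KO and 2 in p57WT (ratio 439, 95% counting interval 121 to 3631). Without p57KO 3 this ratio was 285 and without p57WT 2 it was 249, while without p57WT 1 no p57WT count was left. Scaled to epithelial markers, the first list had 2 higher and 3 lower, and the second 3 higher and 3 lower. Under that scaling 3.12% of all genes were called higher and 58.1% lower.

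Genes of bile acid and fat handling were called higher more often than lower. Of 9 bile acid genes tested, 5 rose and 0 fell (median 2.42), and scaled to epithelial markers 4 rose and 0 fell. Under that scaling 3.12% of all genes were called higher and 58.1% lower. The exporter subunit gene Slc51a averaged 182 ± 92.6 CPM in p57KO and 22.5 ± 3.30 CPM in p57WT (SD, n = 5 each). On the log2 scale Slc51a and its partner subunit Slc51b rose by 3.02 and 2.49, and Nr1h4, the nuclear bile acid receptor FXR, by 2.54. Gpbar1, the membrane bile acid receptor, was not called, as given above. Of 14 genes of fat digestion products and short-chain acid transport, 11 rose and 1 fell (median 1.88). Scaled to epithelial markers 6 of these were higher and 2 lower, and within 607 none passed in either direction in edgeR. Mogat2, which makes diacylglycerol from monoacylglycerol, averaged 237 ± 52.3 CPM in p57KO and 40.7 ± 16.4 CPM in p57WT. It rose by 2.54, the fatty acid binding protein gene Fabp1 by 2.87 and Mttp, which loads lipoproteins, by 1.98. The gene that fell was Napepld, which makes ethanolamides, at -0.82 (edgeR adjusted p = 0.0450), named after its value was seen. Its call was lost in 7 of the 10 fits that leave out a library, those without p57KO 2, 3 or 4 or p57WT 1, 2, 3 or 4 (edgeR adjusted p from 0.0580 to 0.125), and without p57WT 2 the value was -0.58.

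Signalling genes downstream of the receptors were called lower more often than higher. For the Gq and Gi lists the share called lower was near the 17.2% of all genes. Their share called higher, 1 of 17 and 1 of 9, was below the 19.3% of all genes. Of 23 genes of the Gs and cAMP arm, 0 rose and 7 fell in edgeR (median -0.63), while limma voom called 2 higher and 9 lower. Prkacb, a catalytic subunit gene of protein kinase A, averaged 65.3 ± 38.2 CPM in p57KO and 250 ± 45.7 CPM in p57WT (SD, n = 5 each). The adenylyl cyclase genes Adcy5 and Adcy9 were at -2.73 and -1.77, and Prkacb at -1.94. Of 17 genes of the Gq and calcium arm, 1 rose and 4 fell (median -0.02). Itpr1, an inositol trisphosphate receptor gene, was at -1.60 and the phospholipase gene Plcb4 at -1.86, and Gna11, picked after its value was seen, rose by 0.75. Without p57WT 5 Gna11 did not pass (0.72, edgeR adjusted p = 0.0510), and scaled to epithelial markers it turned to -0.45.

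Of 9 genes for Gi and taste G proteins, 1 rose and 2 fell (median -0.50), with Gnao1 at -1.94, Rgs2 at -1.02 and Gnai3 at 0.99. Gnai3 did not pass without any 1 of p57KO 3, p57KO 4 or p57WT 1 to 4 (edgeR adjusted p from 0.0502 to 0.0916), and turned to -0.34 when scaled to epithelial markers. Of 7 arrestin and receptor kinase genes, 0 rose and 3 fell in edgeR, and the same counts were found in limma voom. Arrb1, the beta-arrestin 1 gene, was at -1.57, and the receptor kinase genes Grk4 and Grk3 were at -2.58 and -0.99. Beside these lists, smooth muscle markers fell, 10 of 10 tested, with a median of -2.35, and their part in the signalling genes was not tested. Scaled to epithelial markers, 0 genes were higher in any of these lists, beside 3.12% of all genes. Called lower were 17 of 23 Gs, 14 of 17 Gq, 6 of 9 Gi and 5 of 7 arrestin and receptor kinase genes, beside 58.1% of all genes.

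Genes of electrical nutrient sensing moved both ways, with 7 of 15 higher and 4 lower (median 1.45). Slc5a1, the sodium-glucose transporter whose current depolarises endocrine cells, averaged 271 ± 77.7 CPM in p57KO and 46.7 ± 17.6 CPM in p57WT. It rose by 2.54, while the calcium channel genes Cacna1c and Cacna1h were at -3.08 and -2.51. Kcnj11 and Abcc8, the pore and the sulfonylurea-binding subunit of the ATP-sensitive potassium channel, were picked after their values were seen and rose by 2.84 and 2.15. Scaled to epithelial markers this list had 3 higher and 6 lower, beside 3.12% of all genes higher and 58.1% lower. Within 607, 0 members of it rose and 3 fell in edgeR, while the bile acid list had 2 higher and 0 lower.

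**Figure D4:**
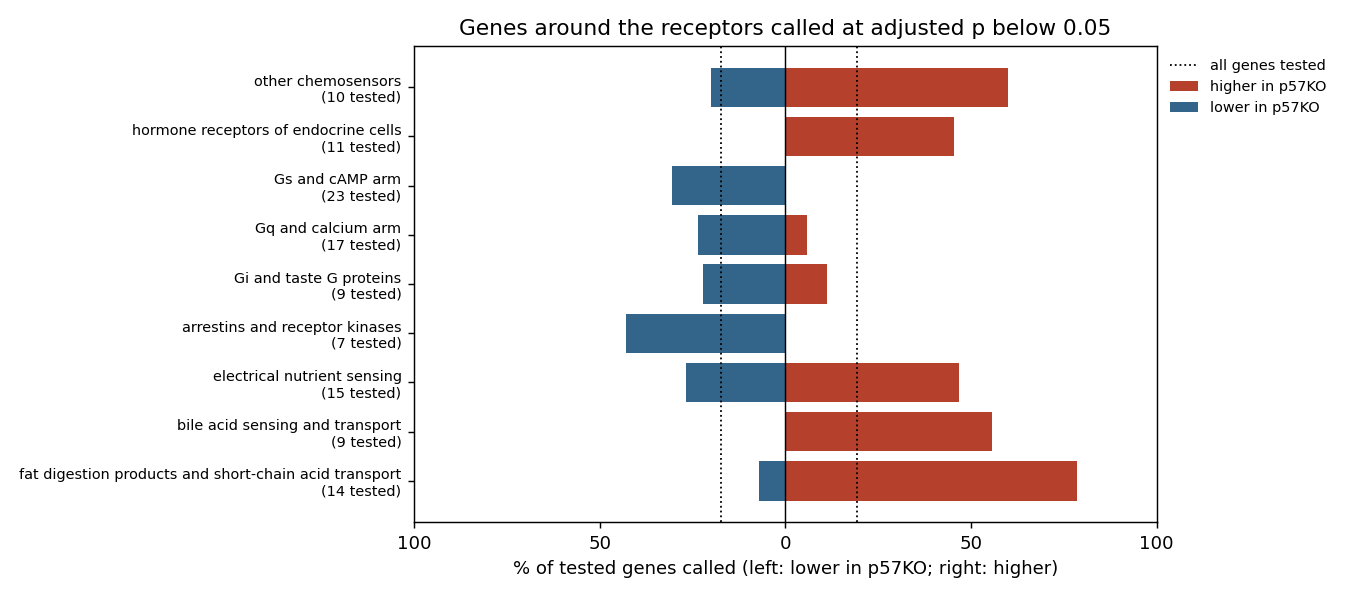
Percentage of tested genes called higher (right) and lower (left) in p57KO for the 9 lists of genes around the receptors, with dotted lines at the 19.3% and 17.2% of all genes called in each direction. The fat and bile acid lists lie mostly to the right, with 11 of 14 and 5 of 9 genes higher, and the Gs and arrestin lists lie wholly to the left, with 7 of 23 and 3 of 7 genes lower.

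Markers of other cell types that can carry these receptors were counted in the same fit. In that fit 19.3% of all genes were called higher and 17.2% lower. Of 30 enteroendocrine markers 25 rose and 0 fell (median 3.18), and of 18 epithelial markers 15 rose and 0 fell (1.25). Among leukocyte lists, 2 of 3 neutrophil and 6 of 6 pan-leukocyte markers rose and 0 fell. Without p57KO 1 and p57KO 2, 5 of 6 pan-leukocyte, 3 of 4 neutrophil and 25 of 30 enteroendocrine markers rose. The share of all genes called without these libraries is not given here. The other lists were counted over all 10 libraries. Of 10 enteric neuron markers, 1 rose and 5 fell (-1.65), and of 4 glial markers, 1 rose and 1 fell. Of 4 islet markers 3 rose and 0 fell, of 4 endothelial markers 0 were called, and of 5 fibroblast markers 0 rose and 4 fell. Their part in the receptor levels was not tested.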

How the data were processed

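RNA-seq reads of 10 libraries reached GEO as 1 table. Its columns, per the file headers, are raw counts, a deposited signal value that equals the count over 1 size factor per library, and the authors' own comparison as deposited log2 fold changes, a score (Wald statistic, standard error) and p-values. Tools listed without roles, per the submitters' processing notes, include STAR 2.6.1d, HTSeq 1.0 and DESeq2 1.22.2 on mm10 (GRCm38). Annotation release and strandedness were not stated there. No receptor shared exon bases with another annotated gene in GENCODE M21.

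Counts were tested with edgeR 4.0.16 in R 4.3.3 (quasi-likelihood, TMM scaling, filterByExpr, genotype as the only term), with Benjamini-Hochberg adjustment over 16710 genes; 3869 were filtered out. Ffar3 and Casr, below the filter, were compared by an exact permutation test chosen after seeing the data. CPM use the TMM-scaled library size. Alternatives used DESeq2 1.42.0, limma 3.58.1, other scalings, terms and left-out libraries. Promoters are from RefSeq (GRCm38.p6). Genes named from each list were the 3 with the smallest p unless said otherwise; 1 of these is not reported here. Members and lists were chosen with earlier results of these data known.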

Additional observations from a re-analysis of the deposited data

Results flagged for a closer look

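Ffar4 in p57KO 2 was at 18.7 CPM, and its gap to the next p57KO library was 0.887 of the whole p57KO range, above the limit of 0.71 for 5 samples (Dixon). Chance flags about 1 in 20 groups, and 14 groups, 7 receptors in each genotype, were screened. The same library held the highest sum of pan-leukocyte markers, 2900 CPM, and their part in this value was not tested.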

How the results depend on the processing

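The number of receptors called higher was 3 of 5, and 0 were called lower, beside 19.3% and 17.2% of all genes. When each library was left out in turn, the number called higher stayed between 3 and 4, with 0 called lower. Without the filter on low counts it was 5 of 7, beside 17.2% of all genes. Scaled to enteroendocrine markers it was 0, beside 0.377% of all genes. The number called lower was 1 when scaled to epithelial markers, beside 58.1% of all genes. It was 2 when scaled to enteroendocrine markers, beside 95.8%. Leaving out 1 library moved the log2 fold change of Ffar2 between 1.95 and 2.31, of Gpr119 between 3.87 and 4.83, of Ffar4 between 1.72 and 2.66, of Ffar1 between 1.35 and 2.18 and of Gpbar1 between -1.07 and -0.29. For the differences in mean log2(CPM + 0.5), the ranges were 0.91 to 1.17 for Ffar3 and 1.29 to 1.71 for Casr.

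With the label number as a term, Ffar2 was at 1.44, Ffar4 at 2.2 and Gpr119 at 2.76 in edgeR. This estimate rests on 607 alone, where p57WT 1 is the only p57WT library, so a missed threshold there cannot show that a receptor is unchanged. Scaled to epithelial markers, Ffar4 was at 0.72 and Gpbar1 at -1.85, and scaled to enteroendocrine markers Ffar1 was at -1.34, Ffar2 at -1.43, Ffar4 at -1.71, Gpr119 at 0.69 and Gpbar1 at -4.96. Ffar1 passed at 1.85 in DESeq2, 3.25 in limma voom and 2.32 without p57KO 1 and p57KO 2. Except for the scalings, whose construction shifts all genes, the cause was not tested.

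The replicate number pairs no libraries by design: correlations of same-numbered deviations ran from -0.134 to 0.204, and 3 of 10 libraries correlated best with their own number. With the replicate block, the same number, 3 of 5, was called higher and 0 lower, against 5804 genes over the whole table (6107 without it). Ffar3 and Casr rest on few reads, and their ratios of pooled counts depend on single p57WT libraries. Alternatives for pooled counts were chosen after seeing the data.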
